A study of Sus scrofa with 19 samples.

Results

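Cathepsins B, D, H, K, L and S are proteases of the lysosome, and *LAMP1* and *LAMP2* encode the glycoproteins that cover the inner face of its membrane. Every probe set of the porcine array with a single gene symbol, that symbol being *CTSB*, *CTSD*, *CTSH*, *CTSK*, *CTSL*, *CTSS*, *LAMP1* or *LAMP2*, was taken. This gave 12 of the 23999 probe sets tested, for 7 of the 8 genes, out of 6870 genes that the array names in this way. *CTSB*, *CTSD*, *CTSH*, *CTSK* and *LAMP1* had 1 probe set each, *CTSS* had 3, *LAMP2* had 4, and no probe set was named *CTSL*. A probe set named *CTSV*, for which the RefSeq annotation of Sscrofa11.1 lists *CTSL* as an older name, was not counted as a member.

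The expression values come from the *longissimus dorsi* (LD) muscle, labelled as longissimus thoracis et lumborum, of 19 Duroc pigs slaughtered at 190 days of age, with 1 GeneChip Porcine Genome Array per pig. The LD HIGH group held 10 pigs and the LD LOW group 9, and the labels describe them as high and low fattening animals. The labels call them a commercial line and describe both groups as the ends of a ranking of a larger set of animals on traits of carcass, plasma and muscle fat, so that each group stands for several traits at once. The paper's methods describe that population as barrows of several half-sib families and, unlike the labels, the pigs of its own expression comparison as a random choice, and the grouping here follows the labels. Family, fattening batch and laboratory, which those methods name for the population, are not given per pig in the labels, and their part in the values below was not tested.

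Cathepsins are made as inactive precursors, are carried to the lysosome through the Golgi, and become active in its acid interior, where they break down proteins delivered by endocytosis or by autophagy. Cathepsins B, H, K, L and S are cysteine proteases, which the cystatins inhibit, and cathepsin D is an aspartic protease. In muscle, the lysosomal route is one of the main pathways of protein breakdown beside the proteasome, and macrophages and other resident cells also hold large amounts of these enzymes. In a tissue sample, fewer cells of a type and less RNA per cell cannot be told apart.

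Signals are log2 values, in which 1 unit is a 2-fold difference. The 17 tag control probe sets, which match no pig transcript, averaged 2.11 and never passed 2.72 on any array, and a probe set was taken as above background on an array when it was brighter than every tag control on that array. The medians of the 19 arrays ran from 3.43 to 3.59 and the correlations between arrays from 0.970 to 0.993. The arrays carried the RNA of muscle: all 20 named muscle fibre genes were above background in every pig, and their mean log2 signal ran from 14.3 to 14.6. Of 17 named macrophage genes, 10 were above background in every pig and *ITGAM*, *MARCO* and *SIGLEC1* in none.

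All 12 cathepsin and LAMP probe sets were above background in all 19 pigs. *CTSB* (Ssc.1181.1.S1_at, on chromosome 14), a protease that cuts within proteins and also removes dipeptides from their ends, had signals of 10.77, 11.33 and 12.20 (lowest, median and highest) in LD HIGH and of 10.87, 11.33 and 11.62 in LD LOW. The groups covered one another almost wholly, and the pig at the top was the LD HIGH animal 1533. The log2 difference, LD HIGH minus LD LOW, was 0.04 (95% interval -0.27 to 0.34, limma p = 0.810, adjusted p = 0.993).

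*CTSD* (Ssc.28893.1.A1_at, chromosome 2), the main aspartic protease of lysosomes, had signals of 7.34, 8.0 and 8.38 in LD HIGH and of 7.66, 7.79 and 8.42 in LD LOW. Pigs with low and with high values were found in both groups. The difference was 0.01, with an interval from -0.30 to 0.32.

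*CTSH* (Ssc.3593.1.S1_at, chromosome 7), which removes single residues from the amino end of proteins and is abundant in macrophages and in lung, showed the widest spread. Its signals were 4.64, 5.50 and 7.21 in LD HIGH and 4.22, 5.18 and 6.02 in LD LOW. The SD over the 19 pigs was 0.66, which is larger than that of 93.2% of the probe sets above background in every pig. Pig 1533 lay above all the others, and the remaining LD HIGH values fell within or close to the LD LOW range. The difference was 0.40 (a fold of 1.32, interval 0.88 to 1.99 as a fold), with 8 of 10 LD HIGH pigs above the LD LOW mean, and it did not pass the test (limma p = 0.167, adjusted p = 0.993). Without pig 1533 it was 0.23.

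*CTSK* (Ssc.1020.1.S1_at, chromosome 4), a collagen-degrading protease best known from osteoclasts and also made by fibroblasts, had signals of 6.74, 7.38 and 7.84 in LD HIGH and of 6.78, 7.31 and 7.94 in LD LOW. The ranges were nearly the same. The difference was 0.10 (interval -0.22 to 0.41), and 0.04 without pig 1444 and 0.18 without pig 2157, both LD LOW.

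*CTSS*, the next gene to *CTSK* on chromosome 4, encodes the protease of antigen presenting cells that trims the invariant chain of MHC class II. Its probe set Ssc.17203.1.A1_at gave 6.68, 7.68 and 8.38 in LD HIGH and 6.73, 7.62 and 8.66 in LD LOW. Ssc.17203.3.S1_at gave 5.11, 6.13 and 6.93 in LD HIGH and 5.03, 6.29 and 7.31 in LD LOW. Both probe sets spread widely within each group (SD of 0.58 and 0.64 over 19 pigs) and placed pig 8700, of LD LOW, at the top. The differences were -0.05 (interval -0.59 to 0.49) and -0.07 (interval -0.66 to 0.53). The other *CTSS* probe set, Ssc.17203.2.S1_at, stayed between 2.79 and 3.06 in all pigs, just above the tag controls, and its difference was -0.01 (interval -0.08 to 0.05).

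*LAMP1* (Ssc.16549.1.S1_at, chromosome 11) had signals of 8.69, 9.23 and 9.72 in LD HIGH and of 8.01, 9.45 and 9.63 in LD LOW. The LD LOW pig 2157 stood far below the others of its group, which ran from 9.19 to 9.63, and it was also the pig with the highest *CTSK* signal. The difference was -0.02 (interval -0.39 to 0.34), and -0.18 without pig 2157.

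*LAMP2*, on chromosome X, gives rise to splice forms, one of which is the lysosomal receptor of chaperone-mediated autophagy, and its loss in humans causes a disease of heart and skeletal muscle. Ssc.1955.1.A1_at gave 10.29, 10.75 and 10.93 in LD HIGH and 10.39, 10.65 and 11.11 in LD LOW, with a difference of -0.09 (interval -0.34 to 0.17). Ssc.1955.2.S1_at gave 6.82, 7.21 and 8.34 in LD HIGH and 6.89, 7.52 and 8.52 in LD LOW, with a difference of -0.18 (interval -0.67 to 0.30), and -0.07 without the LD LOW pig 1918. In both probe sets the ranges of the groups overlapped over most of their length. Ssc.8098.1.A1_at gave 4.78, 5.39 and 5.67 in LD HIGH and 5.27, 5.47 and 5.81 in LD LOW, with a difference of -0.15 (interval -0.39 to 0.09, limma p = 0.20). The remaining *LAMP2* probe set, Ssc.4254.1.S1_at, was close to the tag controls (mean of 2.79 ± 0.15, SD, n = 19) and differed by -0.01. Which splice forms each probe set reads is not stated in the sources used here.

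**Figure D1:**
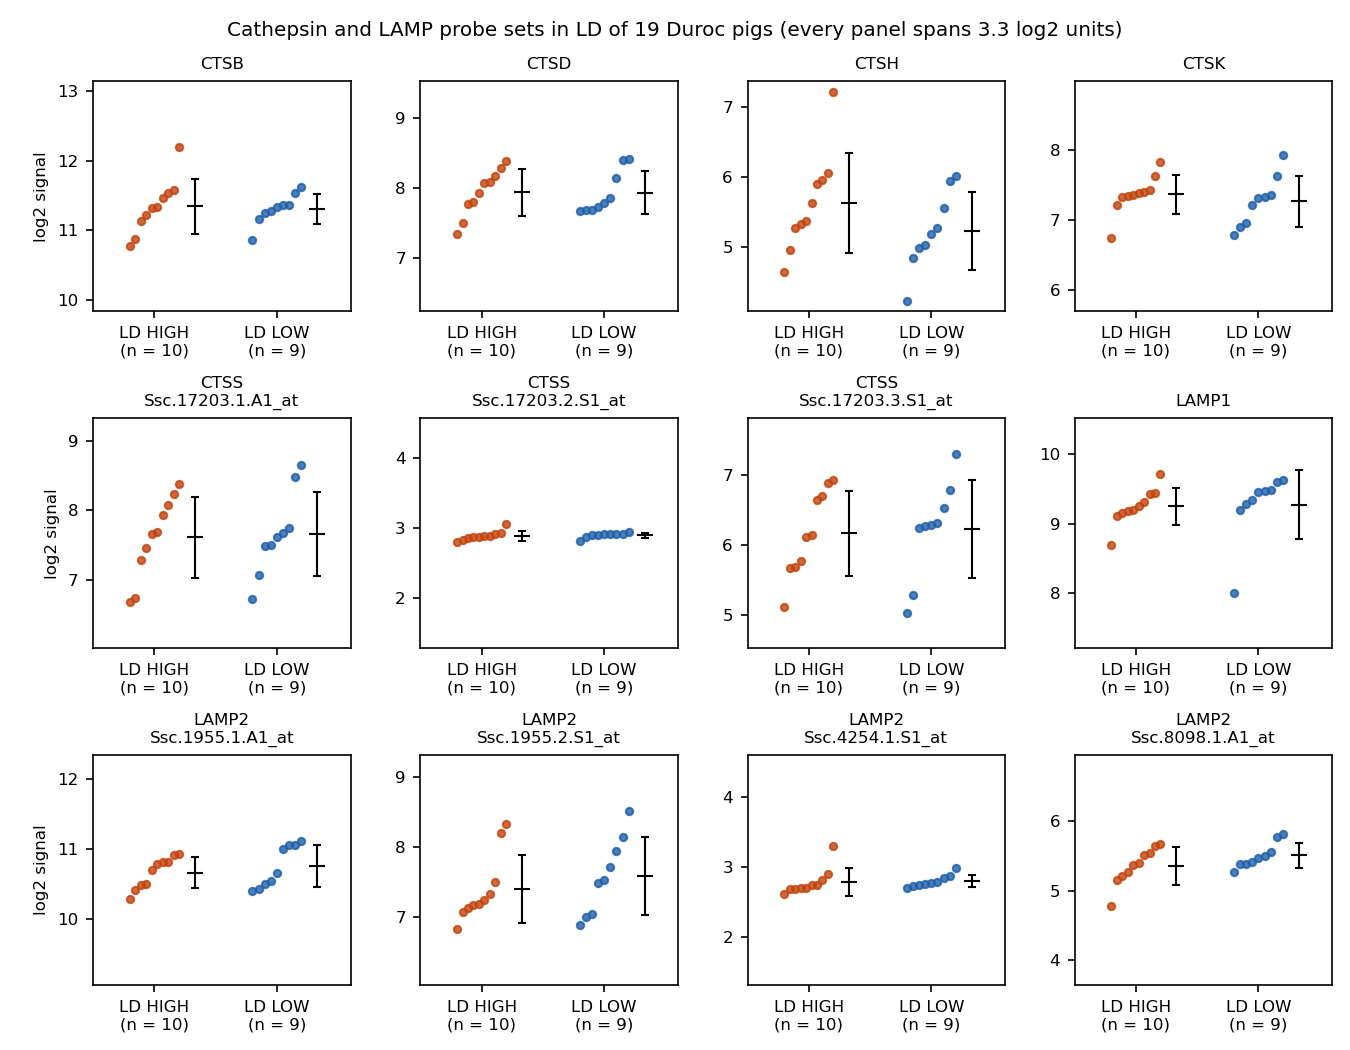
Log2 signal of the 12 cathepsin and LAMP probe sets, with each point 1 pig, ordered by value within LD HIGH (orange, n = 10) and LD LOW (blue, n = 9), and the bar giving the mean ± SD. The groups overlap in all 12 panels, *CTSH* and *CTSS* spread most, and the pig at 8.01 for *LAMP1* stands apart from its group.

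None of the 12 probe sets passed the test between LD HIGH and LD LOW, and neither did any of the other probe sets of the array. With limma and Benjamini-Hochberg adjustment, 0 of 23999 probe sets (0%) had an adjusted p under 0.05, the smallest adjusted p being 0.993. At an unadjusted p under 0.05 there were 843 (3.51%) over the array, 1.87% with a higher and 1.64% with a lower mean in LD HIGH, and 0 among the 12. The mean was higher in LD HIGH for 4 of the 12 probe sets, against 41.3% of all, and lower for 8, against 58.7%. The median difference was -0.02, against -0.01 over all probe sets. The values of the groups overlapped in all 12, and only 0.00417% of all probe sets did not overlap. The 95% intervals of the 12 differences all included 0, and 9 of the differences were smaller than 0.1 in size. The intervals set the size of change that could have gone unseen: for *CTSB*, *CTSD*, *CTSK*, *LAMP1* and the *LAMP2* probe set Ssc.1955.1.A1_at they stayed within folds of 0.76 and 1.33, whereas for *CTSH* they reached 1.99.

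**Figure D2:**
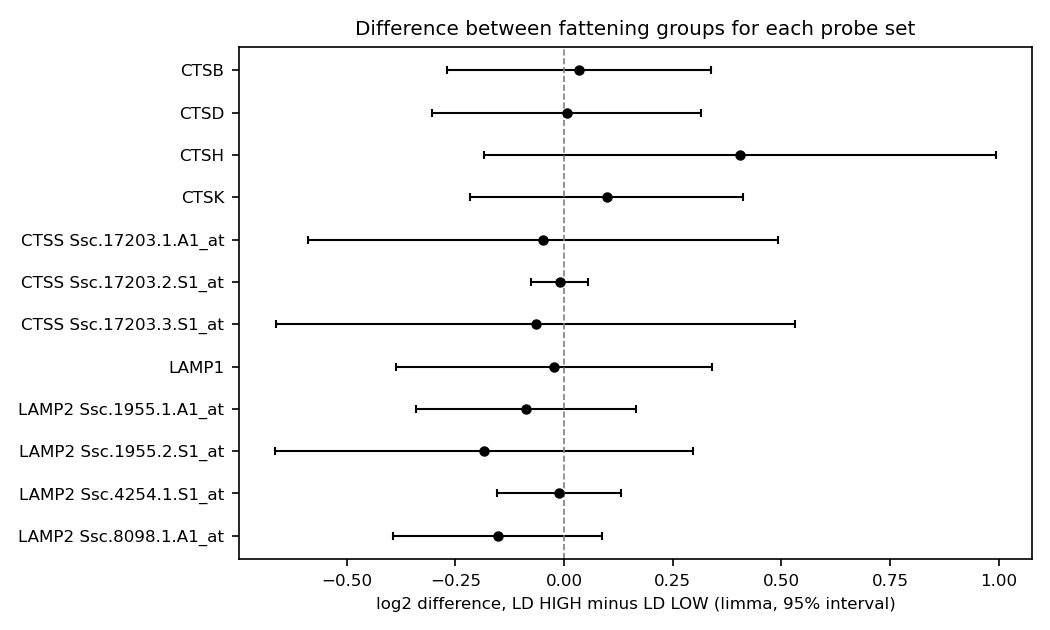
Log2 difference, LD HIGH minus LD LOW, of each cathepsin and LAMP probe set (point) with its 95% interval from limma (bar), and a dashed line at 0. Every interval crosses the line, with the largest estimate, 0.40, for *CTSH*.

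Co-variation was examined over the 19 pigs with 1 probe set per gene, the one with the highest mean signal, which gave 21 pairs of the 7 genes. Only a few pairs moved together: r was at least 0.5 in 2 pairs (9.52%), against 6.92% of all pairs of probe sets above background, and -0.5 or lower in 1 pair (4.76%), against 5.0%. No pair had a permutation p under 0.05 after adjustment over the 21 pairs. These shares lie close to those over the whole array, since a single pair among the 21 amounts to 4.76%. The count of pairs at 0.5 or above was 0 without pig 1533, 1 without pig 1452, 1540, 1550, 1594, 1612, 1903 or 2172, and 3 without pig 8697, and it was 0 for rho.

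*CTSB* took part in both positive pairs. Over the array, 3.72% of the other probe sets above background had an r of at least 0.5 with it. With *CTSH* its r was 0.58 (permutation p = 0.0125, adjusted p = 0.205) and its rho was 0.30 (permutation p = 0.215, adjusted p = 0.502). The value was 0.70 within LD HIGH and 0.31 within LD LOW, and leaving out pig 1533, which was highest for both genes, took it to 0.25. Without the 2 pigs farthest from the median of *CTSB* it was 0.38, and without the 2 farthest from the median of *CTSH* it was 0.04, so that this relation rests on those pigs.

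With *CTSD*, *CTSB* had an r of 0.50 (permutation p = 0.0269, adjusted p = 0.205) and a rho of 0.49 (permutation p = 0.0341, adjusted p = 0.277). Within LD HIGH r was 0.74 and within LD LOW it was 0.02, a contrast that was not tested. The LD LOW pig 1444 had a low *CTSB* and a high *CTSD* signal. Without it r was 0.72 (adjusted permutation p of 0.0116), the highest value on leaving out 1 pig. That p was adjusted over the pairs but not over the pigs left out in turn, so it is no test of the relation. Without pig 1533 r was 0.39, the lowest such value, and without the 2 pigs farthest from the median of *CTSB* also 0.39. Pig 1444 also had the highest 3'-5' difference, the signal at the 3' end of control transcripts less that at their 5' end, which tracks RNA integrity, at 1.61 against 0.77 to 1.20 in the other 18 pigs.

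The negative pair was *CTSK* and *LAMP1*, with an r of -0.50 (permutation p = 0.0293, adjusted p = 0.205) and a rho of -0.33 (permutation p = 0.162, adjusted p = 0.502). It was -0.09 within LD HIGH and -0.70 within LD LOW. Leaving out pig 2157 alone took it to -0.24. *CTSK* and *CTSS*, neighbours on chromosome 4, had an r of 0.12 (permutation p = 0.616) and *LAMP1* and *LAMP2* one of 0.36 (permutation p = 0.132), with a rho of 0.48 (permutation p = 0.0372, adjusted p = 0.277).

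Probe sets of the same gene varied together in some cases only. The *CTSS* probe sets Ssc.17203.1.A1_at and Ssc.17203.3.S1_at had an r of 0.85 and a rho of 0.85 (permutation p of 3e-05 and 2e-05, adjusted p of 0.00027 and 0.00018 over 9 pairs). Without the 2 pigs farthest from the median r was 0.82, and both probe sets ordered the pigs in much the same way. The *LAMP2* probe sets Ssc.1955.1.A1_at and Ssc.1955.2.S1_at had an r of 0.68 and a rho of 0.63 (permutation p of 0.0014 and 0.00422, adjusted p of 0.0063 and 0.0190). The *LAMP2* probe set Ssc.8098.1.A1_at varied apart from Ssc.1955.1.A1_at (r of 0.00, permutation p = 0.988). It had values of r of 0.47 with *CTSD* and 0.43 with *LAMP1*, and Ssc.1955.2.S1_at had an r of -0.61 with *CTSK*, where Ssc.1955.1.A1_at had -0.37. The choice of the *LAMP2* probe set therefore changed which partners came first. The low *CTSS* probe set Ssc.17203.2.S1_at had an r of -0.12 and -0.05 with the other *CTSS* probe sets, and its whole range was 0.26 log2 units.

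**Figure D3:**
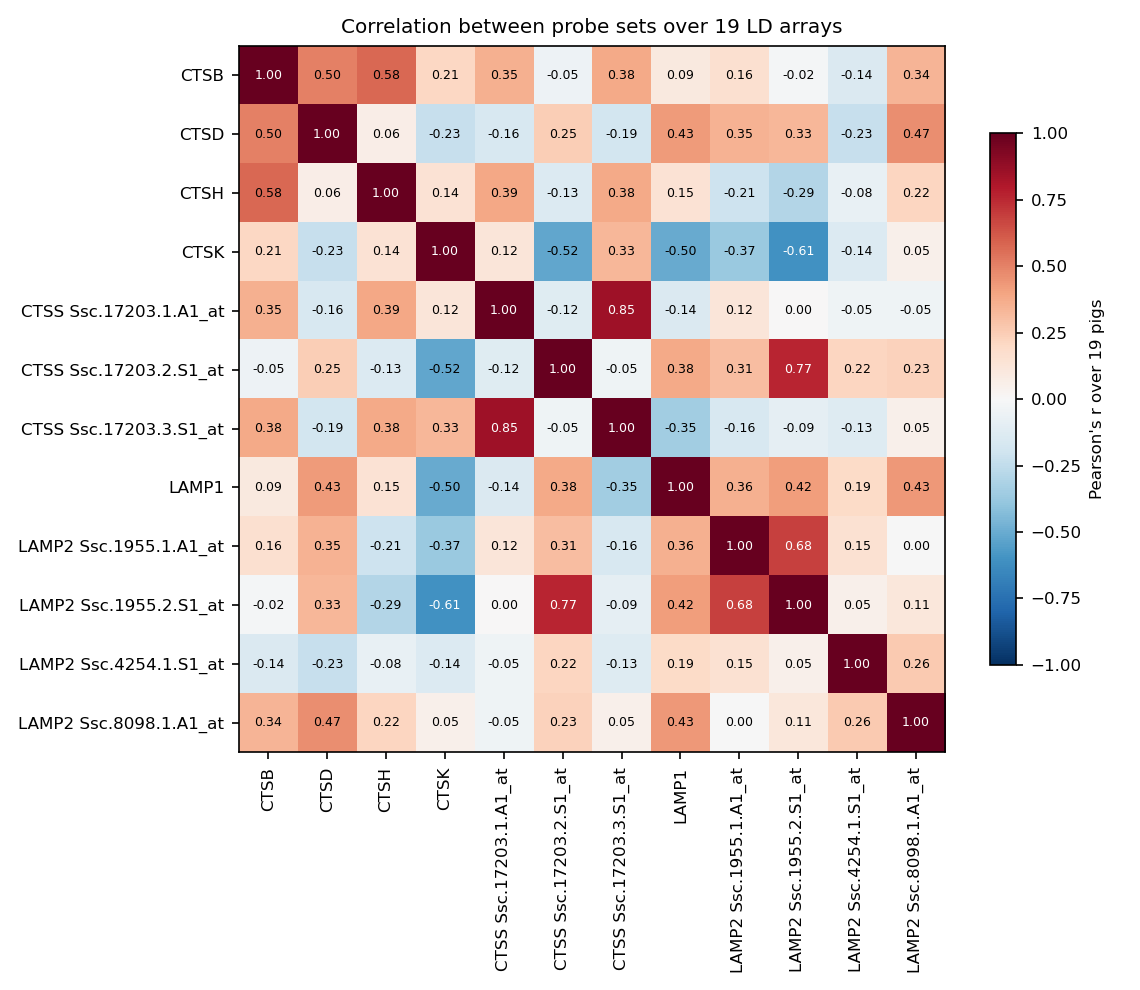
Pearson's r over 19 pigs between the 12 probe sets, in colour from -1 (blue) to 1 (red) with the value in each cell. Between probe sets of one gene, r reached 0.85 for *CTSS* and 0.68 for *LAMP2*. The *CTSB* row holds the positive pairs with *CTSH* (0.58) and *CTSD* (0.50). The 0.77 joins the *LAMP2* probe set Ssc.1955.2.S1_at and the *CTSS* probe set Ssc.17203.2.S1_at, which lies just above background. The same *LAMP2* probe set had an r of -0.61 with *CTSK*.

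Single pigs were at the extremes for several genes. Pig 1533 (LD HIGH) was the highest of the 19 for *CTSB*, *CTSH* and *LAMP1* and among the 3 highest for 5 of the 7 genes, and it also had the highest mean of the macrophage genes, 5.77, against 4.11 to 5.39 in the other pigs. No other pig was the highest for more than 1 gene. Over the 19 pigs the macrophage mean had an r of 0.55 with *CTSB* (permutation p = 0.0131, rho of 0.29), 0.54 with *CTSS* (permutation p = 0.0183, rho of 0.45) and 0.42 with *CTSH* (permutation p = 0.0702, rho of 0.25). The fibroblast and matrix mean had an r of 0.55 with *CTSS* (permutation p = 0.0141, rho of 0.44), and its r was 0.44 with *CTSH* (permutation p = 0.0656, rho of 0.22), 0.44 with *CTSB* (permutation p = 0.0674, rho of 0.34) and 0.41 with *CTSK* (permutation p = 0.0820, rho of 0.44). The muscle fibre mean had an r of 0.42 with *LAMP2* (permutation p = 0.0753, rho of 0.47 with permutation p = 0.0445). *LAMP1* and *LAMP2* had values of r of 0.50 and 0.44 with the 3'-5' difference, and of 0.19 and 0.21 without pigs 1444 and 2157. Of the 35 such relations computed, none had an adjusted p under 0.05 (the lowest was 0.213), and the part of these cells and of RNA integrity in the cathepsin values was not tested. The macrophage mean ran from 4.11 to 5.77 in LD HIGH and from 4.15 to 5.39 in LD LOW. Of the 17 macrophage genes, 2 had a higher mean in LD HIGH and 15 a lower, against 41.3% and 58.7% of all probe sets. Only 10 of the 17 were above background in every pig, and the 15 include *ITGAM*, *MARCO* and *SIGLEC1*, above it in none. None of the 17 had an unadjusted p under 0.05 (*TYROBP*, a signalling adaptor of myeloid cells, was closest, with -0.53, limma p = 0.0623).

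For each gene, the 3 named genes with the highest r over the 19 pigs were listed among the 16201 other probe sets above background. These values describe likeness only, with no test. *CTSD* was most like *FOXO1*, a transcription factor of the insulin pathway that is known to act on muscle protein breakdown and autophagy genes. The r was 0.88 and rho 0.87, r was 0.89 within each group and 0.83 without the 2 pigs farthest from the median, and no other probe set of the array came closer to *CTSD*. *FOXO1* itself had means of 7.94 (LD HIGH) and 8.07 (LD LOW, limma p = 0.516), and its other probe set was below background in every pig. *EIF3L*, a subunit of a translation initiation factor (r of 0.74), and *ABCA1*, a cholesterol exporter (0.73), followed.

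*CTSS* was most like *ARPC5*, a subunit of the Arp2/3 complex that nucleates actin, with an r of 0.88 and a rho of 0.82. Its r was 0.87 within LD HIGH and 0.90 within LD LOW, and no probe set of the array had a higher one. Next came *TMSB10*, an actin monomer binding protein (0.77), and *AIF1*, an actin-bundling protein used as a macrophage marker (0.76, with 0.94 within LD LOW and 0.64 within LD HIGH). *AIF1* is one of the macrophage genes above. *LAMP2* was most like *NCOA4*, the autophagy receptor that carries ferritin to the lysosome, with an r of 0.83, a rho of 0.84 and 0.81 without the 2 pigs farthest from the median, again with no probe set above it. *TES*, a protein of focal adhesions (0.75), and *LOC100621778* (0.74) followed. The *LOC100621778* probe set lay just above the tag controls (mean of 2.84, SD of 0.07), where signals say little about expression.

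*LAMP1* was most like *ATG4D*, a protease that processes ATG8 proteins in autophagy, with an r of 0.88 but a rho of 0.58, and r was 0.51 without pigs 2157 and 2144, which were lowest for both genes. Over the array, 4 probe sets had a higher r with *LAMP1* than this one of *ATG4D*. The other *ATG4D* probe set had an r of 0.45 with *LAMP1*. *GANAB*, the catalytic subunit of endoplasmic reticulum glucosidase II, had an r of 0.85 with *LAMP1* that was 0.10 without the same pigs. *ELOVL1*, an elongase of very long chain fatty acids, had an r of 0.69 without them. *CTSB* was most like *SHISA5*, a membrane protein of the endoplasmic reticulum (0.84), *NME2*, a nucleoside diphosphate kinase (0.81), and *GRHPR*, a glyoxylate reductase (0.79), with values of 0.68, 0.68 and 0.70 without pig 1533. The other *SHISA5* probe sets, also above background in every pig, had an r of 0.26 and 0.50 with *CTSB*. Over the array, 1 probe set came closer to *CTSB* than *SHISA5* did. *CTSH* was most like *MEAF6* (0.79), a subunit of histone acetyltransferase complexes, whose other probe set had an r of 0.00 with it. *FAM43A* (0.77) and *TMED4*, a protein of the early secretory pathway (0.76), followed, at 0.47 and 0.46 without pigs 1533 and 1444. *CTSK* was most like *BUD23* (0.84), a ribosomal RNA methyltransferase, whose other probe set had an r of -0.51 with it. *LOC100522725* (0.83) and *ALDH1A1*, a retinaldehyde dehydrogenase (0.81), followed. Without pig 2157 the values for *BUD23*, *LOC100522725* and *ALDH1A1* were 0.79, 0.78 and 0.76. For *CTSK* too, 1 probe set of the array came closer than *BUD23*.

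**Figure D4:**
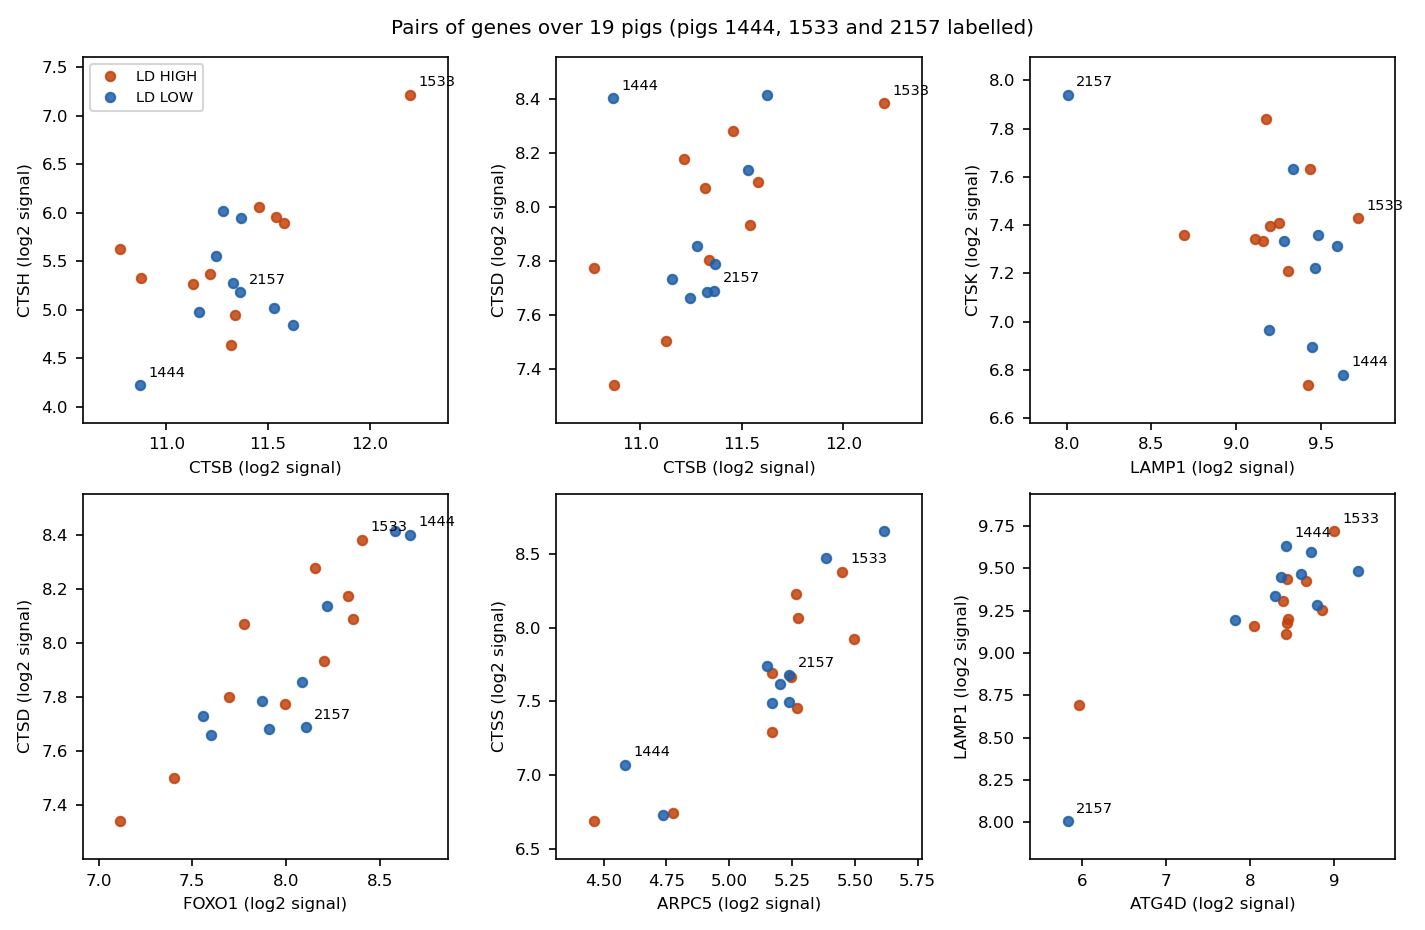
Log2 signals of 6 pairs of genes, each point 1 pig (LD HIGH orange, LD LOW blue), with pigs 1444, 1533 and 2157 numbered. The upper row gives *CTSH* and *CTSD* against *CTSB* and *CTSK* against *LAMP1*, where single numbered pigs lie far out, and the lower row gives *CTSD* against *FOXO1* (r of 0.88), *CTSS* against *ARPC5* (0.88) and *LAMP1* against *ATG4D* (0.88), the last with 2 pigs far below the rest.

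The inhibitors of cathepsins were then set beside the cysteine cathepsins, a comparison chosen after the data had been seen. *CSTB* encodes the cytosolic inhibitor cystatin B. Its relation with *CTSB* passed the test when adjusted over these 13 relations only, apart from the pairs and marker relations above. The call rested on 1 pig. Over the array, 3.72% of the other probe sets above background had an r of at least 0.5 with *CTSB*. *CSTB* had signals of 9.05, 9.29 and 10.19 in LD HIGH and of 8.92, 9.35 and 9.41 in LD LOW. The r of *CTSB* and *CSTB* was 0.69 (permutation p = 0.00151, adjusted p = 0.0196 over 13 relations) and rho was 0.68 (permutation p = 0.00193, adjusted p = 0.0251). Without pig 1533 r was 0.53 and the adjusted permutation p was 0.313, and without pigs 8697 and 1533, the farthest from the median of *CSTB*, r was 0.52. Within LD HIGH r was 0.81 and within LD LOW 0.14, a contrast that was not tested. The other 12 relations, with *CST3*, *CST6* and *CD74*, and of *CSTB* with *CTSH*, *CTSK* and *CTSS*, did not pass, and the largest of them in size was that of *CTSH* and *CSTB*, with an r of 0.44 (adjusted permutation p = 0.404). *CTSS* and *CD74*, which encodes the invariant chain that cathepsin S cuts, had an r of 0.26 (permutation p = 0.290).

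Outside the members, 109 named genes were taken in 7 lists, of the lysosome, of autophagy and of cathepsin inhibitors. Of these, 64 had a higher mean in LD HIGH and 45 a lower. The share with a higher mean was 58.7%, against 41.3% of all probe sets. These shares are not of like probe sets. Each of the 109 genes was read from its brightest probe set, and 98 were above background in every pig, against 67.5% of all probe sets. None of the 109 had an adjusted p under 0.05, and 4 (3.67%, against 3.51% of all probe sets) had an unadjusted p under 0.05. The median difference was 0.02. The 8 other proteases were split evenly, 4 higher and 4 lower, with *LGMN*, the asparagine-specific protease legumain that processes cathepsins, at -0.16 (limma p = 0.363). *CTSV* had a mean of 10.55, with 9.79, 10.57 and 11.14 in LD HIGH and 10.20, 10.49 and 11.28 in LD LOW, and a difference of -0.06 (limma p = 0.701).

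Among the 25 glycosidases, lipases and other hydrolases, 13 were higher in LD HIGH and 12 lower. The one with an unadjusted p under 0.05 was *GM2A*, the activator protein for the breakdown of GM2 ganglioside (-0.33, limma p = 0.0429). The 12 membrane proteins and transporters had 7 higher and 5 lower, with *TMEM55B* at 0.20 (limma p = 0.0681). *LAPTM5*, among the 5 lower, is also counted with the macrophage genes above. The proton pump, which acidifies the lysosome, had 10 of its 14 named genes higher and 4 lower, with a median of 0.03. Its gene with the smallest p was *ATP6V1F*, a subunit of the cytosolic part of the pump, at 0.28 (limma p = 0.0251), and 9 of 10 LD HIGH pigs were above the LD LOW mean.

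Of 24 genes of sorting, biogenesis and regulation, 15 were higher and 9 lower, and *BLOC1S1*, a subunit of complexes that position lysosomes, had a difference of -0.63 (limma p = 0.0103), and 9 of the 10 LD HIGH values lay under the mean of LD LOW. Of 19 autophagy genes, 13 were higher and 6 lower, with *OPTN*, an autophagy receptor, at 0.24 (limma p = 0.0636). The 7 cathepsin inhibitors had 2 higher and 5 lower. *CD74*, counted with them because it can also inhibit cathepsins, had signals of 7.39, 7.71 and 8.44 in LD HIGH and of 7.76, 8.63 and 10.0 in LD LOW. All 10 LD HIGH values lay under the mean of LD LOW, although the ranges overlapped, and the difference was -0.79 (interval -1.27 to -0.31, limma p = 0.00274, adjusted p = 0.993).

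The marker genes of other tissues in the samples gave a background for these values. Of all probe sets, 41.3% had a higher mean in LD HIGH, 58.7% a lower one, and 3.51% an unadjusted p under 0.05. These shares cover probe sets at all levels, whereas each list gene was read from its brightest probe set. In the adipocyte list, 9 of 13 named genes were higher in LD HIGH, 4 of them at an unadjusted p under 0.05 (*FABP4*, *ADIPOQ*, *DGAT2* and *LIPE*, at 0.58, 1.39, 1.32 and 1.06). Only 7 of the 13 were above background in every pig. The 4 lower genes include *ACACA* and *LEP*, above it in none, and *RETN*, above it on 2 arrays. In the fibroblast and matrix list 13 of 15 were higher, with a median of 0.15 and none at an unadjusted p under 0.05 (*FAP* was closest, at 0.37, limma p = 0.0729). The endothelial list had 3 of 10 higher, with no unadjusted p under 0.05 and *VWF* closest, at -0.31 (limma p = 0.0881). Of the 10, 8 were above background in every pig and 2 in none. The lymphocyte list had 1 of 8 higher, also with no unadjusted p under 0.05, but only 3 of the 8 were above background in every pig. *CD3E* was closest, at -0.11 (limma p = 0.161). Its mean was 2.20 and it was above background on 1 array, so its difference says little about expression. In the muscle fibre list, 6 of 20 genes were higher and 14 lower. Of these, 2 (*ATP2A1* at -0.48 and *PYGM* at -0.12) had a lower mean with an unadjusted p under 0.05. No adjusted p in these lists was under 0.05, and the part of the tissue make-up in the cathepsin values was not tested.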

How the data were processed

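RNA of the LD muscle was measured on Affymetrix arrays, 1 per pig, and the authors deposited log2 signals per probe set, for which the labels name GCRMA, with no version in the sources used here. Background correction, normalization and summary were thus already done. The paper's methods name RMA for its expression data. A second deposited table holds 4268 of the 24114 probe sets, 4 of the 12 described here among them, with values identical within 1e-06, and was used only for this check. Samples of the GM muscle were not analysed here.

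The 115 control probe sets were left out and 23999 tested, with no filter on level. The members were picked by the symbols of the platform annotation (10069 probe sets have 1 symbol, 198 several and 13732 none). Entrez identifiers linked 9961 of the first to RefSeq genes of Sscrofa11.1. Genes of the lists and the genes most like each member carry the RefSeq symbol, or the platform symbol where no link was found. RefSeq also gave chromosomes, neighbours and older names. No arrays held identical values, and the number of arrays limits the precision.

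The groups were compared by a limma 3.58.1 fit with trend (R 4.3.3), adjusted by Benjamini-Hochberg over all probe sets tested, and the fit was tested on simulated data. Correlations are Pearson's r and Spearman's rho over 19 pigs, with two-sided permutation p-values from 100000 resamples. Each gene of a list was read from its probe set with the highest mean, and a list's level in a pig is the mean log2 signal of its genes above background in all pigs. Named genes are all members, in each list those with an unadjusted p under 0.05 (at most 4) or else the one with the smallest p, and the 3 genes most like each member. Members and lists were chosen with earlier results of these data known. The alternatives were a fit with no trend, a filter on low probe sets, centring on the array median, quantile normalization, array weights, the 3'-5' difference of the control transcripts as a covariate, rank correlation, values with the group means removed, the mean of a gene's probe sets, and leaving out each pig.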

Additional observations from a re-analysis of the deposited data

Results flagged for a closer look

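Of 34 groups of values, 5 held a pig that stood apart from the others of its group by Dixon's criterion, where chance gives about 1 in 20. Each cathepsin and LAMP probe set was taken within LD HIGH and within LD LOW. So were measures per pig that included the 3'-5' difference and the array median. *LAMP1* in the LD LOW pig 2157 was 8.01, against 9.43 ± 0.15 (SD) in the other 8 pigs. The *CTSS* probe set Ssc.17203.2.S1_at in the LD HIGH pig 1536 was 3.06, against 2.87 ± 0.04 in the other 9, and the array of that pig also had the highest median, 3.59, against 3.47 ± 0.03. The *LAMP2* probe set Ssc.4254.1.S1_at in the LD HIGH pig 1540 was 3.3, against 2.73 ± 0.08 in the other 9, and both probe sets lie just above background. The 3'-5' difference of the control transcripts was 1.61 in the LD LOW pig 1444, against 1.0 ± 0.15 in the other 8.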

How the results depend on the processing

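With array weights, 5 of 23999 probe sets had an adjusted p under 0.05 (2933 unadjusted, smallest adjusted p of 0.0425), none of them a cathepsin or LAMP probe set, and under the other settings and without any single pig there were 0 (638 to 1638 unadjusted without 1 pig, the highest without pig 1536). No cathepsin or LAMP difference passed the test under any setting. With array weights the differences turned to -0.13 for *CTSB*, -0.18 for *CTSD* and 0.015 for the *LAMP2* probe set Ssc.4254.1.S1_at. The *CTSD* difference was -0.0032 with arrays centred on their medians and -0.033 after quantile normalization, and that of *LAMP1* was 0.010 with the 3'-5' difference as a covariate. The cause was not tested. Without 1 pig, the differences ran from -0.060 to 0.099 for *CTSB*, -0.044 to 0.072 for *CTSD*, 0.23 to 0.51 for *CTSH*, 0.037 to 0.18 for *CTSK*, -0.16 to 0.077, -0.029 to 0.00030 and -0.22 to 0.069 for *CTSS* (Ssc.17203.1.A1_at, Ssc.17203.2.S1_at and Ssc.17203.3.S1_at), -0.18 to 0.039 for *LAMP1*, and -0.13 to -0.043, -0.29 to -0.068, -0.069 to 0.011 and -0.19 to -0.089 for *LAMP2* (Ssc.1955.1.A1_at, Ssc.1955.2.S1_at, Ssc.4254.1.S1_at and Ssc.8098.1.A1_at).

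The count of pairs with r of at least 0.5, which was 2, became 0 with rho, 1 with arrays centred on their medians and 3 after quantile normalization or with the mean of a gene's probe sets, and ran from 0 (without pig 1533) to 3 (without pig 8697). The relation of *CTSB* and *CSTB* passed the adjusted test under the 5 other settings tried, which were chosen after seeing the data, and ran from 0.53 to 0.76 without 1 pig, losing the call without pig 1533. No paired analysis was possible because the pigs of the 2 groups share no numbers. Signals near the tag controls, such as the low *CTSS* and *LAMP2* probe sets, say little about expression.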
